A study of Rattus norvegicus with 4 samples.

Results

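miR-26a-5p and miR-26b-5p are the main products of the miR-26 hairpins, and their reads were followed through 4 libraries of sequenced small RNA. The cells were vascular smooth muscle cells from the aorta of Sprague-Dawley rats, grown with 10% FBS and then depleted of serum for 48 h. They were left untreated (control) or treated for 1 h, 3 h or 24 h with angiotensin II (Ang II, 100 nM), the vasoconstrictor peptide of the renin system. Each group was 1 library, so no difference below has a replicate check, and every interval is an exact 95% interval that covers counting error only. The control carries no time of its own, so an effect of Ang II and one of further hours in culture cannot be told apart. A tag, that is a distinct sequence with its read count, was given to a member if its first 18 bases were those of the mature sequence. The 2 members were drawn from 692 distinct rat mature sequences in RefSeq, and in the control 135 of 872748 tags belonged to miR-26a-5p and 58 to miR-26b-5p.

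MicroRNAs (miRNAs) pair with messenger RNAs mainly through the seed, bases 2 to 8, and lower their output. The miR-26 family has been studied in smooth muscle, where miR-26a is reported to favour proliferation over differentiation and to act on the Smad branch of TGF-beta signalling, and elsewhere as a repressor of the chromatin enzyme Ezh2. Its hairpins lie within genes for CTD phosphatases, and the mature miR-26a is a known substrate of enzymes that add uridine to the 3′ end. None of this was measured here.

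The mature sequences are shown first because the same seed, in capitals, stands in both and separate bases downstream tell them apart.
miR-26a-5p: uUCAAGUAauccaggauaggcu
miR-26b-5p: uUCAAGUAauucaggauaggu
The listed miR-26a-5p has 22 bases and the listed miR-26b-5p 21. No other of the 692 sequences holds the same bases 2 to 8. Counted from 1 at the 5′ end, the first 24 bases read off the hairpins differ by C11U and C21U, with the miR-26a base first. The hairpins follow, with the mature sequence in capitals, since they decide which 3′ bases can be templated.
Mir26a: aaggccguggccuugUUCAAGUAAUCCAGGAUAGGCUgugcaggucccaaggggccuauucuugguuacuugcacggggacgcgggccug
Mir26b: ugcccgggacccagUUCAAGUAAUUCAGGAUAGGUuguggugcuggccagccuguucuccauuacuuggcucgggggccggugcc
In RefSeq's build GRCr8 the Mir26a hairpin lies at chr8:127633048-127633137 on the plus strand, within the span of Ctdspl (chr8:127520478-127644999, plus strand). The Mir26b hairpin lies at chr9:83425709-83425793 on the plus strand, within the span of Ctdsp1 (chr9:83422755-83428411, plus strand). Whether these positions are exonic or intronic was not looked up here. The reads carry no position, so a read of another locus with the same start would be counted with these members.

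The libraries held 14395539 reads that name a sequence in the control, then 13119417 at 1 h, 14370167 at 3 h and 14534892 at 24 h. Levels are given as reads per 1000000 of these (RPM). Between 68.4% (control) and 74.4% (3 h) of the reads matched a mature miRNA. The smooth muscle miRNAs miR-143-3p and miR-145-5p together held 250472 RPM in the control and up to 312175 RPM (3 h) with Ang II. Nearly all of this was miR-143-3p. miR-145-5p was at 2275 RPM in the control and between 2216 RPM (3 h) and 2463 RPM (24 h) with Ang II. Of the markers of other cell types in RefSeq, the endothelial list (2 of 2 with reads) summed to 105 to 125 RPM and the striated muscle list (3 of 4) to 98.4 to 122 RPM, nearly all of it miR-1-3p. The neural list (1 of 1) was at 31.6 to 43.8 RPM and the epithelial list (2 of 2) at 3.54 to 6.40 RPM. Blood and immune markers (2 of 4) summed to 0.457 to 0.757 RPM and the liver marker (1 of 1) to 0.0688 to 0.229 RPM. The striated and neural sums were highest in the control, and the part of these sums in the results was not tested. miR-142-5p, miR-223-3p and miR-208a-3p were at 0 in all 4 libraries. The listed names miR-150-5p (blood and immune), miR-200a-3p, miR-200b-3p and miR-429 (epithelial) and miR-124-3p (neural) were not matched. They are not in these counts and sums. In such bulk samples fewer cells of a type and less RNA per cell cannot be told apart.

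In RPM, both members stood higher at 1 h and 3 h than in the control and at 24 h, and miR-26b-5p was the less abundant of them in every library. miR-26a-5p had 14429 reads in the control, then 15411 at 1 h, 16393 at 3 h and 14377 at 24 h. On the RPM scale these were levels of 1002 (986 to 1019), 1175 (1156 to 1193), 1141 (1123 to 1158) and 989 (973 to 1005). The libraries at 1 h and 3 h stood above the control and 24 h beyond counting error, and the intervals of the control and 24 h overlapped. miR-26b-5p had 3696, 4088, 4352 and 3649 reads, or 257 RPM (249 to 265), 312 (302 to 321), 303 (294 to 312) and 251 (243 to 259). It showed the same picture, with 1 h and 3 h above the control and 24 h, and with overlap within each of those pairs.

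**Figure D1:**
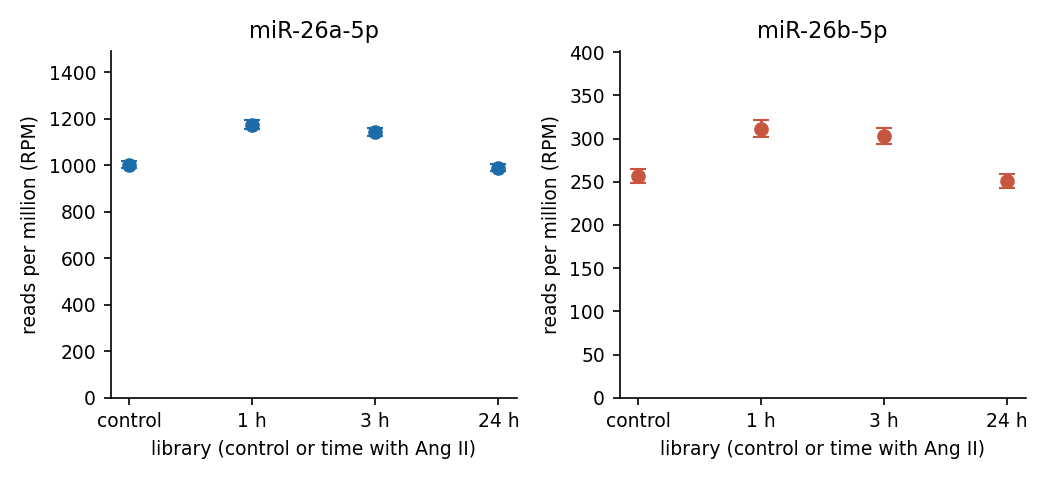
Level of miR-26a-5p (left) and miR-26b-5p (right) in RPM in the control library and after 1 h, 3 h and 24 h with Ang II. Points are 1 library each and bars are exact 95% Poisson intervals; both members were highest at 1 h (1175 and 312 RPM) and lowest at 24 h (989 and 251 RPM).

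By fold, miR-26a-5p stood at 1.17 times the control at 1 h (1.15 to 1.20), 1.14 at 3 h (1.11 to 1.16) and 0.987 at 24 h (0.964 to 1.01). miR-26b-5p stood at 1.21 (1.16 to 1.27), 1.18 (1.13 to 1.23) and 0.978 (0.934 to 1.02). From 3 h to 24 h the fold was 0.867 for miR-26a-5p (0.848 to 0.887) and 0.829 for miR-26b-5p (0.793 to 0.866). From 1 h to 3 h it was 0.971 (0.95 to 0.993) and 0.972 (0.931 to 1.01), so that only the first of these intervals lies below 1. The 3 comparisons with the control share that 1 library.

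A miRNA was called higher or lower when the log2 ratio of RPM + 1 passed 1.5-fold and the higher library had at least 100 reads. Neither member was called at any time. At 1 h, 2.31% of 173 miRNAs were called higher and 2.31% lower, 4.62% in either direction. At 3 h, 4% of 175 were called higher and 4% lower, 8% in either direction. At 24 h, 5.08% of 177 were higher and 16.4% lower, 21.5% in either direction. The members' log2 ratios at 1 h were 0.23 for miR-26a-5p and 0.28 for miR-26b-5p, where the median of all miRNAs was -0.091. At 3 h they were 0.19 and 0.24 against a median of -0.052. At 24 h they were -0.019 and -0.032 against a median of -0.25, signs that turned with TMM or median-of-ratios factors. Thus 146 of 173 miRNAs had a lower ratio than miR-26a-5p at 1 h, 137 of 175 at 3 h and 127 of 177 at 24 h, and for miR-26b-5p these numbers were 153, 145 and 125. With edgeR's TMM factors, which raise each log2 ratio at 24 h by 0.26 before the pseudocount is added, miR-26a-5p stood at 0.24 and miR-26b-5p at 0.22. At 3 h they stood at 0.25 and 0.31 on that scale. The lower level of miR-26a-5p at 24 h than at 3 h was thus nearly gone there, while that of miR-26b-5p remained in part. On the same scale both stood higher at 1 h than at 24 h, at 0.34 for miR-26a-5p and 0.39 for miR-26b-5p. At 1 h and 3 h both were above the control under all 4 scales, by 0.066 to 0.39 on the log2 scale.

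**Figure D2:**
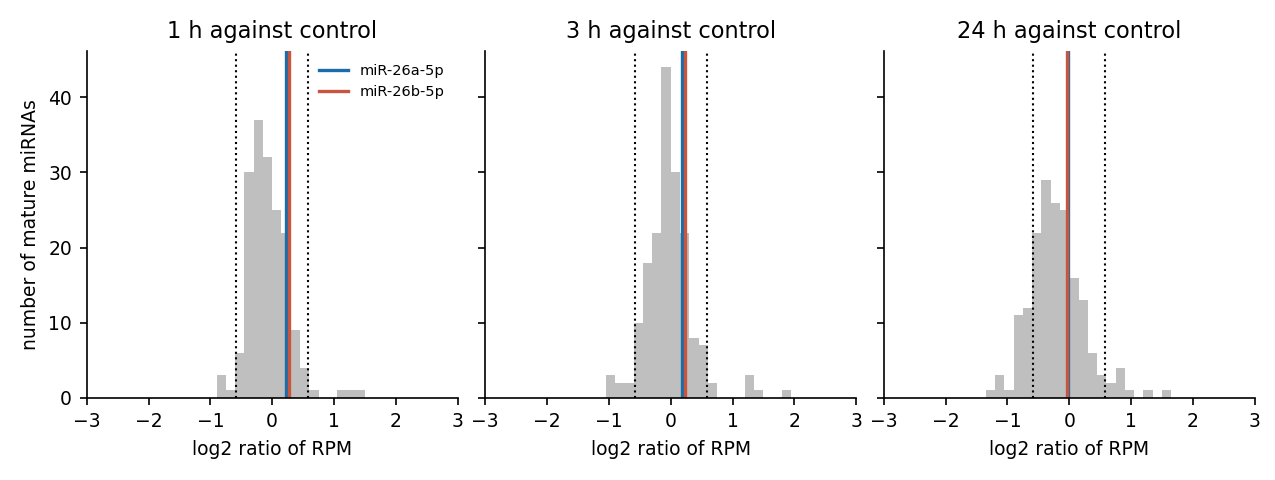
Log2 ratios of RPM against the control at 1 h, 3 h and 24 h for all mature miRNAs with at least 100 reads (grey histogram, 173, 175 and 177 miRNAs), with miR-26a-5p in blue and miR-26b-5p in red. Dotted lines mark 1.5-fold; the members lie to the right of most miRNAs and inside the dotted lines in all 3 panels.

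The members kept nearly the same proportion throughout. There were 3.90 reads of miR-26a-5p for each read of miR-26b-5p in the control (3.77 to 4.05), 3.77 at 1 h (3.64 to 3.90), 3.77 at 3 h (3.64 to 3.90) and 3.94 at 24 h (3.80 to 4.09). All 4 intervals overlap. The scale does not enter this proportion, but the tags counted do: with the listed sequences alone it was 25.5 to 29.2. miR-26a-5p made up 79.6% of the reads of both in the control, then 79.0% at 1 h, 79.0% at 3 h and 79.8% at 24 h.

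Among all miRNAs with reads, miR-26a-5p was at rank 38 in the control and at rank 37 in the 3 other libraries. Its neighbours could not be told from it by counting error in 2 cases, miR-28-3p at 990 RPM in the control (974 to 1006) and miR-199a-3p at 1198 RPM at 1 h (1179 to 1217). miR-26b-5p was at rank 61 in the control, then 56 at 1 h, 59 at 3 h and 57 at 24 h. Its interval overlapped those of miR-532-5p in the control, of miR-143-5p and miR-542-3p at 1 h and of miR-143-5p at 3 h. For both members only the next miRNA on either side in rank was compared. Others can overlap too, as miR-24-2-5p did at 3 h, where its 311 RPM lay within the interval of miR-26b-5p.

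Likeness of pattern was measured as the Euclidean distance between the 3 log2 ratios against the control, over 158 other miRNAs with at least 100 reads in every library. The nearest miRNA to miR-26a-5p was miR-26b-5p, at a distance of 0.072, against a median distance of 0.59 over the 158. Next were miR-184 (0.087), let-7g-5p (0.089), let-7f-5p (0.11) and miR-24-3p (0.11). From the side of miR-26b-5p, miR-26a-5p was followed by let-7f-5p (0.094), let-7g-5p (0.11), miR-184 (0.12) and miR-101a-3p (0.14). let-7f-5p had log2 ratios of 0.22, 0.25 and -0.10 at 1 h, 3 h and 24 h, and miR-101a-3p 0.19, 0.35 and -0.027. The control library enters all of these ratios, so part of any likeness is shared by construction. No counting interval was computed for the distances, so the order among close ones is not settled.

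Other miRNAs are reported to act on Ezh2. Of miR-101a-3p, miR-101b-3p, miR-138-5p and miR-214-3p, 0 of 4 were called at any time, where 4.62%, 8% and 21.5% of all miRNAs were called at 1 h, 3 h and 24 h, shares at which 0 of 4 is no result about the list. Their median log2 ratios were 0.0080 at 1 h, 0.14 at 3 h and -0.28 at 24 h. By log2 ratio miR-214-3p lay lowest of the 4 at each time, with 56.5 RPM in untreated cells against 43.4, 41.1 and 39.9 at 1 h, 3 h and 24 h. miR-101a-3p lay highest at each time, with log2 ratios of 0.19, 0.35 and -0.027. A second list held miRNAs reported in growing smooth muscle. Of its 5 names miR-31-5p was not matched under that name. RefSeq lists miR-31a-5p, which was not counted with the list. Its log2 ratios were 0.39, 0.29 and -0.26 at 1 h, 3 h and 24 h, and it was not called. Of the other 4 (miR-146a-5p, miR-21-5p, miR-222-3p and miR-221-3p) 0 were called, against the same 4.62%, 8% and 21.5% of all miRNAs. The medians of these 4, without miR-31a-5p, were -0.075, -0.12 and 0.23 at 1 h, 3 h and 24 h. The last of these lay above 0, unlike the median of all miRNAs (-0.25) and unlike miR-31a-5p (-0.26).

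The members differed in where their tags ended. The tags with most reads are printed below in the DNA letters of the files, with bases that the hairpin does not hold in capitals.
miR-26a-5p, 22 nt: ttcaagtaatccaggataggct
miR-26a-5p, 20 nt: ttcaagtaatccaggatagg
miR-26a-5p, 21 nt: ttcaagtaatccaggataggc
miR-26a-5p, added U: ttcaagtaatccaggataggctT
miR-26a-5p, added A: ttcaagtaatccaggataggctA
miR-26a-5p, 19 nt: ttcaagtaatccaggatag
miR-26b-5p, 22 nt: ttcaagtaattcaggataggtt
miR-26b-5p, 21 nt: ttcaagtaattcaggataggt
miR-26b-5p, 20 nt: ttcaagtaattcaggatagg
miR-26b-5p, 23 nt: ttcaagtaattcaggataggttg
miR-26b-5p, added U: ttcaagtaattcaggataggttT
miR-26b-5p, added A: ttcaagtaattcaggataggttA
The listed 22 nt form of miR-26a-5p had 7292 reads in the control, then 7976 at 1 h, 8290 at 3 h and 7280 at 24 h. It made up 50.5%, 51.8%, 50.6% and 50.6% of all miR-26a-5p reads. The form of 20 nt, which lacks the last 2 bases, had 4520, 4607, 5274 and 4583 reads. Its share was 31.3% in the control (30.6 to 32.1), 29.9% at 1 h (29.2 to 30.6), 32.2% at 3 h (31.5 to 32.9) and 31.9% at 24 h (31.1 to 32.6), so that 1 h stood slightly below 3 h and 24 h. The form of 21 nt between them had 791, 953, 986 and 920 reads, no more than 6.40% of the total in any library.

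miR-26b-5p had 1 leading form. Its tag of 22 nt, which is 1 templated base longer than the listed sequence, had 2915 reads in the control, then 3214 at 1 h, 3438 at 3 h and 2853 at 24 h, or 78.9%, 78.6%, 79.0% and 78.2% of its reads. The listed 21 nt sequence itself had 250, 288, 291 and 285 reads, between 6.69% (3 h) and 7.81% (24 h). The form of 20 nt, which has the same last base as that of miR-26a-5p, had 143, 150, 189 and 150 reads.

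The contrast at 20 nt was present in every library. Tags of 20 nt made up 32.1% of miR-26a-5p in the control (31.4 to 32.9) and 4.09% of miR-26b-5p (3.47 to 4.77), and at 24 h 32.8% (32.0 to 33.5) and 4.33% (3.69 to 5.04). Up to that base the sequences differ at position 11 alone. The mean length over reads lay between 21.3 nt (24 h) and 21.4 nt for miR-26a-5p and between 21.9 and 22.0 nt for miR-26b-5p. Among 88 miRNAs with at least 1000 reads in each library, tags shorter than the listed sequence but held by the hairpin had a median share of 10.6% in the control. miR-26a-5p was at 38.3% there, with 17 of the 88 above it, and miR-26b-5p at 4.06%, with 66 above it. Tags longer than the listed sequence on the hairpin made up 81.3% of miR-26b-5p in the control, with 4 miRNAs above it, against 0.291% of miR-26a-5p. The shares of shorter and longer tags depend on the listed lengths, 22 nt for miR-26a-5p and 21 nt for miR-26b-5p. The leading form of miR-26b-5p, counted as longer, ends at base 22, as the listed miR-26a-5p does.

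**Figure D3:**
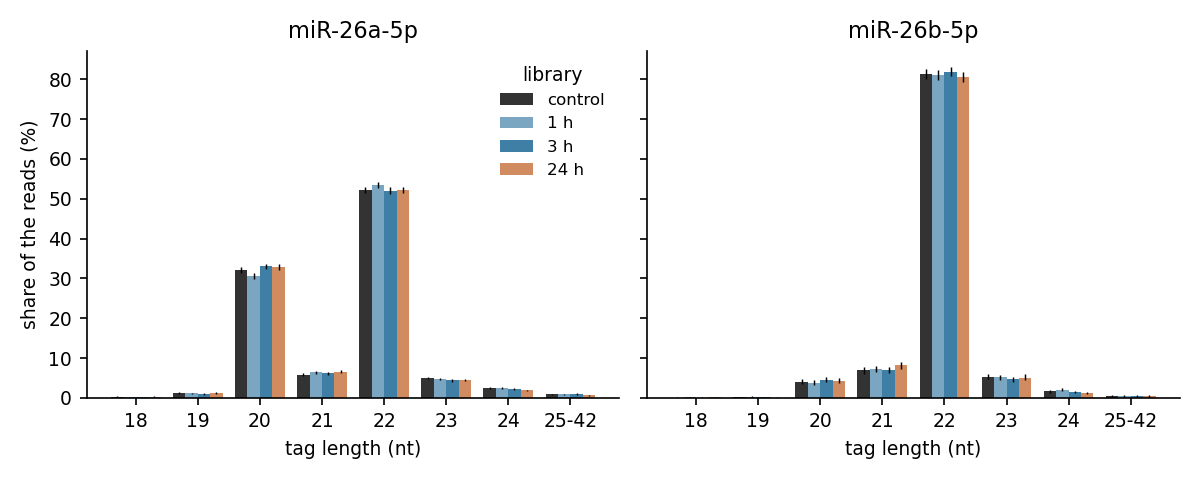
Share of the reads of miR-26a-5p (left) and miR-26b-5p (right) by tag length in nt, in the 4 libraries; lines on the bars are exact 95% binomial intervals. miR-26a-5p has peaks at 22 nt and 20 nt (52.2% and 32.1% in the control) and miR-26b-5p a peak at 22 nt (81.4%), alike in all libraries.

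Most reads of both members lay wholly on their hairpin, between 89.1% (control) and 90.7% (24 h) of miR-26a-5p reads and between 92.0% (1 h) and 92.6% (24 h) of miR-26b-5p reads. Added bases, meaning up to 5 bases after the longest common start with the hairpin, were found on 9.65% of miR-26a-5p reads in the control (9.18 to 10.1), 9.47% at 1 h, 8.78% at 3 h and 8.34% at 24 h (7.89 to 8.80). For miR-26b-5p the shares were 6.11% (5.36 to 6.94), 6.68%, 6.16% and 5.84% (5.10 to 6.65). The control and 24 h intervals do not overlap for miR-26a-5p and do for miR-26b-5p. Without tails equal to the start of the 3′ adapter, miR-26a-5p was at 5.38% in the control (5.02 to 5.76) and 4.98% at 24 h (4.63 to 5.35), and these intervals overlap. The median over the 88 miRNAs was 9.14% in the control and 7.77% at 24 h, also lower.

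A single added U was the commonest addition to the 22 nt form of miR-26a-5p. The tag had 346 reads in the control, then 327 at 1 h, 332 at 3 h and 339 at 24 h, where the hairpin holds G and the templated tag of 23 nt had 24, 15, 30 and 21 reads. Of the tags that ended at base 22 with or without 1 added base, 4.36% carried U in the control (3.92 to 4.83), 3.79% at 1 h (3.39 to 4.21), 3.72% at 3 h (3.33 to 4.13) and 4.31% at 24 h (3.87 to 4.79). The intervals of the 4 libraries overlap. On the 22 nt form of miR-26b-5p the added U had 58, 57, 56 and 55 reads, or 1.93% (1.47 to 2.48), 1.71% (1.30 to 2.21), 1.58% (1.19 to 2.05) and 1.86% (1.41 to 2.42). In each library the interval of miR-26b-5p lay below that of miR-26a-5p.

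The U was rare on the 20 nt form of miR-26a-5p, with 6, 7, 7 and 3 reads, at most 0.151% of tags ending there. After base 19 it had 63, 64, 76 and 67 reads against 176, 175, 152 and 179 without it. The hairpin has G at that place, and a G read as U was the most read mismatch inside the sequence (G15U in the control and G14U in the other libraries), so an added U and a misread 20 nt form cannot be told apart there. Counted over all ends, 2.88% of miR-26a-5p reads in the control had 1 added U, and 24 of the 88 miRNAs had more. The median of the 88 was 1.55%, and miR-26b-5p was at 1.68%.

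A single added A after base 22 of miR-26a-5p had 290, 317, 297 and 236 reads, or 3.65% (3.25 to 4.09), 3.67% (3.28 to 4.09), 3.32% (2.96 to 3.72) and 3.00% (2.64 to 3.40) of tags ending there. For miR-26b-5p the share was 1.16% (0.811 to 1.61), 1.62%, 1.44% and 1.56% (1.14 to 2.07). After base 21 the A was more frequent in both, at 9.08% of miR-26a-5p tags ending there in the control (7.27 to 11.2) and 7.41% of miR-26b-5p tags (4.58 to 11.2). Both hairpins hold U at that place, so an added A and a misread form of 22 nt cannot be told apart there. A is also the first base of the 3′ adapter used to make the libraries, so an A left by trimming cannot be told from an added A. Tails of 2 or more bases equal to the start of that adapter were on 1.30% of miR-26a-5p reads in the control, then 1.13% at 1 h, 1.01% at 3 h and 0.793% at 24 h. On miR-26b-5p they had 6, 9, 3 and 5 reads.

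Of the single tags with at least 100 reads, 7 belonged to miR-26a-5p and 3 to miR-26b-5p. At 1 h 0 of these 10 were called, where 21.9% of all tags with 100 reads were (4.79% higher, 17.1% lower). At 3 h 0 of the 10 were called, against 29% of all (5.67% higher, 23.3% lower). At 24 h 1 of the 7 and 0 of the 3 were called, against 36.7% of all (13.2% higher, 23.5% lower). That tag ends in AU after base 22, the first bases of the adapter.
miR-26a-5p, called at 24 h: ttcaagtaatccaggataggctAT
It had 179 reads in the control, then 156 at 1 h, 149 at 3 h and 102 at 24 h. It stood at 0.564 times the control at 24 h (0.438 to 0.724), a log2 ratio of -0.74. With TMM factors this ratio was -0.51 and with median-of-ratios factors -0.52, within 1.5-fold.

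**Figure D4:**
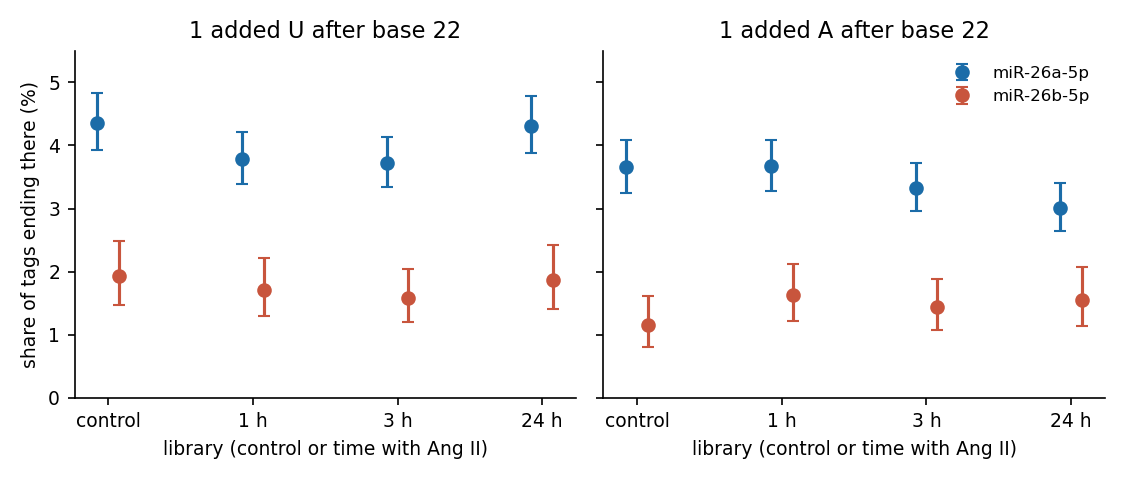
Share of tags ending at base 22 that carry 1 added U (left) or 1 added A (right) in the control library and after 1 h, 3 h and 24 h with Ang II, for miR-26a-5p (blue) and miR-26b-5p (red), with exact 95% binomial intervals. Every point of miR-26a-5p lies above that of miR-26b-5p, as at 4.36% against 1.93% for U in the control.

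A miRNA that starts at another base has another seed, and such tags were counted apart from the members. No tag started 1 or 2 bases further out on either hairpin. With 3 reads as the limit that a count of 0 allows, which is not the exact interval used elsewhere, the share in the control was up to 0.0208% beside 14429 reads of miR-26a-5p and up to 0.0812% beside 3696 of miR-26b-5p. Tags that started further in are shown by their most read forms, with the bases 2 to 8 that would then be the seed in capitals.
miR-26a-5p, 1 base further in: tCAAGTAAtccaggataggct
miR-26a-5p, 2 bases further in, ending at base 20: cAAGTAATccaggatagg
miR-26a-5p, 2 bases further in, ending at base 22: cAAGTAATccaggataggct
miR-26b-5p, 2 bases further in: cAAGTAATtcaggataggtt
For miR-26a-5p, a start 1 base further in had 135 reads in the control, then 118 at 1 h, 98 at 3 h and 98 at 24 h. For miR-26b-5p it had 2, 6, 3 and 1 reads. In the control these were 0.927% (0.778 to 1.10) and 0.0541% (0.00655 to 0.195) of the reads, both under the median of 1.79% over 86 miRNAs. By level the miR-26a-5p start stood at 0.959 times the control at 1 h (0.743 to 1.24), 0.727 at 3 h (0.555 to 0.95) and 0.719 at 24 h (0.549 to 0.939), within 1.5-fold each time. Of all miRNAs with 100 such reads, 1.85% were called higher at 1 h, 1.82% at 3 h and 1.85% at 24 h. The shares called lower were 0%, 10.9% and 25.9%.

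A start 2 bases further in had 171 reads of miR-26a-5p in the control, then 130 at 1 h, 107 at 3 h and 71 at 24 h. This was 1.17% of its reads in the control (1.00 to 1.36), 0.836% at 1 h (0.699 to 0.992), 0.648% at 3 h (0.532 to 0.783) and 0.491% at 24 h (0.384 to 0.619). The share was lower at each later time. The intervals of the control and 1 h do not overlap, but those of 1 h and 3 h do, and so do those of 3 h and 24 h. By level it stood at 0.834 times the control at 1 h (0.659 to 1.05), 0.627 at 3 h (0.488 to 0.803) and 0.411 at 24 h (0.307 to 0.545), which passed 1.5-fold at 3 h and 24 h. The log2 ratio at 3 h, -0.61, was -0.54 with TMM and -0.56 with median-of-ratios factors, within 1.5-fold, and that at 24 h, -1.13, stayed past it at -0.91 with either. Of 16 miRNAs with 100 such reads, 0% were called higher at any time, and 12.5% were called lower at 1 h, 25% at 3 h and 56.2% at 24 h. The tag ending at base 22 had 77, 53, 30 and 22 reads, and the one ending at base 20 had 63, 56, 62 and 36. The same start of miR-26b-5p had 27, 22, 9 and 10 reads, under the minimum for a call, or 0.334 times the control at 3 h (0.138 to 0.731) and 0.367 at 24 h (0.158 to 0.782). The median share over 73 miRNAs was 0.145% in the control and 0.0935% at 24 h. The control library also had the most reads with an unread base, 0.352% against 0.127% to 0.155% in the others, whose part in this result was not tested.

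**Figure D5:**
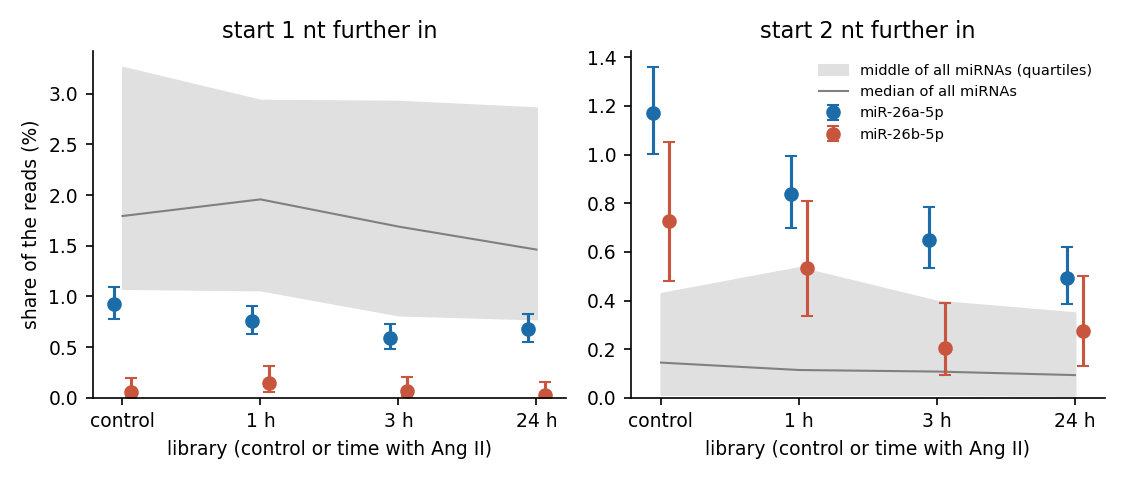
Share of reads that start 1 nt (left) or 2 nt (right) further in than miR-26a-5p (blue) and miR-26b-5p (red) in the control library and after 1 h, 3 h and 24 h with Ang II, with exact 95% binomial intervals. The grey line and band are the median and quartiles over 86 (left) and 73 (right) miRNAs; on the right, miR-26a-5p goes from 1.17% in the control to 0.491% at 24 h.

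The 3′ arms of the hairpins were close to absent. Their sequences, with bases 2 to 8 in capitals, show that they share no seed with the 5′ arms.
miR-26a-3p: cCUAUUCUugguuacuugcac
miR-26b-3p: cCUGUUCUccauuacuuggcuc
miR-26a-3p had 2 reads in the control, then 0 at 1 h, 0 at 3 h and 1 at 24 h. miR-26b-3p had 16, 16, 14 and 18 reads, or 1.11 RPM (0.635 to 1.80), 1.22 (0.697 to 1.98), 0.974 (0.533 to 1.63) and 1.24 (0.734 to 1.96), with all intervals overlapping. This was between 0.321% and 0.491% of the reads of both Mir26b arms.

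Base 21 gave a second reading of which member a tag came from, since the assignment used the first 18 bases. Of the tags of at least 21 nt with C at position 11, 99.6% in the control also had C at position 21 (99.5 to 99.7; 9543 of 9579 reads), and between 99.6% and 99.7% in the others. Of those with U at position 11, 99.4% had U at position 21 in the control (99.1 to 99.6; 3517 of 3538 reads), and between 99.2% and 99.4% in the others. The bases A and G, which belong to neither member, had at most 5 reads each at position 11 in any library.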

How the data were processed

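Per the labels' protocols, libraries were made from 0.5 ug of total RNA with 12 PCR cycles, size-selected at 17 to 52 nt and sequenced on a Genome Analyzer IIx. The deposited files hold raw read counts per distinct sequence, 1 file per library, with no header. Novoalign and rn4 are named without a role, per the submitters' processing notes. Adapter trimming and read filters were not given in the sources used here. Tag length runs from 16 to 42 nt. In each file 1 row has no sequence but a count, and it was dropped: 7.07% of the reads for the control, then 5.66%, 5.13% and 6.36% for 1 h, 3 h and 24 h.

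Mature and hairpin sequences came from RefSeq (GRCr8). Both members, with their hairpins and 3′ arms, were found there. Tags were matched to 685 distinct mature sequences of 18 nt or more by their first 18 bases. The longest common start decided among several and ties were shared. Of these sequences 405 had reads. Depths were 13119417 to 14534892 reads, so that counting error is small for the members and wide for forms with few reads. PCR copies are not independent molecules. Level intervals are exact Poisson, shares exact binomial (Clopper-Pearson) and ratios exact conditional binomial intervals. With 1 library per group no p-value is given. The pseudocount was 1 RPM. A tail was not counted as added if it had over 5 bases, an unread base, or 1 mismatch followed by at least 2 bases of the hairpin. Matching, end classes and calls were tested on simulated data.

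The members, lists and tests were chosen with earlier results of these data known. Named were the members, their 3′ arms, miRNAs with the same seed, the 5 nearest patterns for each, the 6 most read tags of each and listed miRNAs past 1.5-fold. The 4 members of the Ezh2 list, miR-31a-5p and some tags, starts and neighbours in rank were named after their values were seen. The plan gave the base that tells the members apart as position 10, whereas the sequences differ at position 11, which was used. Alternatives were miRNA reads, TMM factors (edgeR 4.0.16, R 4.3.3) or median-of-ratios factors as scale, other tag sets, read minimums of 20 and 500, a pseudocount of 10 RPM, a 2-fold limit and, chosen after seeing the data, not counting adapter-like tails and the other scales for single forms. Computation used scipy 1.17.1, pandas 2.3.3 and numpy 2.4.6 under Python 3.11.15, with plots from matplotlib 3.10.9.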

Additional observations from a re-analysis of the deposited data

How the results depend on the processing

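Neither member passed 1.5-fold under any of the 8 alternatives. Taking tags of 20 to 24 nt, adding starts further in, leaving out tags read once or using a pseudocount of 10 RPM left all 6 log2 ratios within their counting intervals. Scaled to miRNA reads, the ratios of miR-26a-5p at 1 h, 3 h and 24 h were 0.14, 0.066 and -0.091, and those of miR-26b-5p 0.19, 0.12 and -0.10. With TMM factors they were 0.34, 0.25 and 0.24 for miR-26a-5p and 0.39, 0.31 and 0.22 for miR-26b-5p. With median-of-ratios factors they were 0.33, 0.23 and 0.23 for miR-26a-5p, and 0.38 at 1 h and 0.22 at 24 h for miR-26b-5p. The listed sequence alone gave 0.26 for miR-26a-5p at 1 h and 0.17 for miR-26b-5p at 24 h, the latter on 285 reads at 24 h. Both signs at 24 h thus turn with TMM and median-of-ratios factors, and that of miR-26b-5p also with the listed sequence alone. The proportion of miR-26a-5p to miR-26b-5p was 25.5 to 29.2 with the listed sequences alone, since the listed miR-26b-5p is not its leading form, and 3.71 to 3.95 under the 3 other settings. Without adapter-like tails the share with added bases was 4.98% to 5.38% for miR-26a-5p and 3.43% to 4.06% for miR-26b-5p. With the listed sequence as the template it was 87.6% to 89.0% for miR-26b-5p. Of all miRNAs at 1 h, 4 were higher (7 with TMM, 7 with median-of-ratios, 8 with 20 reads) and 4 lower (9 scaled to miRNA reads, 2 with listed sequences alone, 1 with 500 reads, 1 with a pseudocount of 10, 0 at 2-fold). At 3 h 7 were higher (11 with TMM, 13 with 20 reads) and 7 lower (14 scaled to miRNA reads, 11 with 20 reads, 4 with a pseudocount of 10, 2 at 2-fold). At 24 h 9 were higher (5 with 500 reads, 3 at 2-fold) and 29 lower (44 scaled to miRNA reads, 10 with TMM, 10 with median-of-ratios, 17 with listed sequences alone, 14 with 500 reads, 13 with a pseudocount of 10, 4 at 2-fold). No alternative leaves out a library, since each group has 1. Depth limits the 3′ arms and the starts of miR-26b-5p further in, which had under 30 reads.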

Other observations

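Tags that differed from a member by 1 base within the first 18 were left out of the counts. For miR-26a-5p they came to 1016, 980, 1041 and 1094 reads in the control, 1 h, 3 h and 24 h libraries. For miR-26b-5p they came to 284, 270, 263 and 277 reads. Tags with A or G at position 11 differ from either member by 1 base and are in the totals of both. Of the 53 possible changes of miR-26a-5p, the median had 7 reads in the control. The most read over the 4 libraries were G14U with 577 reads, G15U with 537, A13C with 374, G6U with 311 and A5C with 287. These tokens give the listed base, its position from the 5′ end and the base read. For miR-26b-5p the most read were G14U with 145 reads and G15U with 136, the same changes as for its paralog.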
